A study of Mus musculus with 20 samples.

Results

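Interferon-induced genes are the genes that cells switch on when type I or type III interferon binds its receptor, and 37 of the best known ones were followed here in mouse splenic B cells. They were listed by name rather than by a threshold on these values, though with earlier results of the data known, and each was read from its brightest probe set. Of the 37, 35 had a probe set that names 1 gene, and all 35 passed the filter on low values, among 11968 genes tested in all. Isg15 was left out because its only probe set also names Gm9706, and Ifi44 was not used because no probe set in the platform annotation names it. The samples were 20 arrays of B cells from TAK1-deleted mice, genotype mb-1/TAK1f/f, or wild type mice, genotype mb-1/TAK1+/+. TAK1 is a kinase that carries signals from the B cell receptor toward NF-κB and MAP kinases. The mb-1 deleter, which acts in the B lineage, is carried by both genotypes. Each genotype was taken unstimulated (0 h) and after 1, 3, 6 and 24 h with anti-IgM at 10 µg/ml, an antibody against the B cell receptor that activates it, with 2 arrays in each of the 10 groups. The mice were C57BL/6, 8 to 12 weeks old and of mixed sex, and the cells were what remained of the spleen after CD43-bearing cells were removed with magnetic beads. The labels mention no pooling of mice and do not state whether the 2 arrays of a group came from separate animals. Each p-value then reflects only how far these arrays lie apart, which may be technical. Nor do they state how long the unstimulated cells were cultured, so anti-IgM and time in culture cannot be told apart in a change from 0 h.

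As background, type I interferons bind a receptor made of Ifnar1 and Ifnar2, and the kinases Tyk2 and Jak1 then activate Stat2, which joins Irf9 in a complex called ISGF3. This complex binds a promoter element known as the interferon-stimulated response element, and it turns on genes that block viral entry, copying and translation. Irf7 is itself induced and promotes the making of more interferon, while Usp18 shuts the receptor down. B cells respond to interferon from other cells, and the same genes can also be reached through sensors of RNA and DNA inside the cell.

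Values are log2 intensities as summarised by the authors with RMA, a method that corrects background, equalises the arrays and combines the probes of a gene. Changes are log2 differences between group means ± standard error from limma, with n = 2 arrays in each group, and calls were made at an adjusted p below 0.05, with Benjamini-Hochberg adjustment over all 11968 genes. In a comparison of 2 groups the standard error of a member ran from 0.111 to 0.365, and the median over all genes was 0.161. The number of arrays limits this precision, and because RMA keeps some background, folds of dim genes can be understated. The 9 B cell markers tested, among them Ms4a1, Cd79a and Pax5, read between 9.07 and 13.72 in every array. Their mean fell from 12.99 and 12.9 at 0 h to 11.75 and 11.66 at 24 h in TAK1-deleted cells. In wild type cells it fell from 13.06 and 12.91 to 11.67 and 11.55. Replicates correlated with r of 0.979 to 0.994 across genes, which are not independent replicates. Within a group, between 0 and 7 of the 35 members were higher in the array numbered 2 than in the array numbered 1. The median difference over members between those 2 arrays lay between -0.31 and -0.08, and over all genes between -0.16 and -0.04. Because RNA was measured in bulk, fewer cells of a type and less RNA per cell cannot be told apart in any value below.

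Promoters of members were searched for the core of the interferon-stimulated response element. The members were listed as interferon-induced genes, so frequent matches were likely from that choice and say nothing about their course in time. RefSeq promoter windows on GRCm38.p6, 250 bases before to 50 bases after the gene start, were found for 26 of the 35 members. The letters GAAANNGAA, or TTCNNTTTC on the other strand, occurred in a window of 13 of these 26 members, against 9.76% of the 27025 genes with a window. The STAT core TTCNNNGAA, which reads the same on both strands and can share bases with a match to the letters above, occurred in 6 of 26 members (23.1%) and in 9.55% of genes. The kappa B core GGGANTTCC, or GGAANTCCC on the other strand, occurred in 0 of 26 members and in 1.92% of genes. The windows of Ifit1, Ifit3 and Oas3 are shown because they hold several matches and the genes changed by large amounts below, and that of Oasl1 because it was the member called higher at 1 h and has no match. They are written 5′ to 3′ along the gene, with capitals on matches to the interferon-stimulated response element core, some of which overlap.
Ifit1, chr19:34640639-34640938, + strand: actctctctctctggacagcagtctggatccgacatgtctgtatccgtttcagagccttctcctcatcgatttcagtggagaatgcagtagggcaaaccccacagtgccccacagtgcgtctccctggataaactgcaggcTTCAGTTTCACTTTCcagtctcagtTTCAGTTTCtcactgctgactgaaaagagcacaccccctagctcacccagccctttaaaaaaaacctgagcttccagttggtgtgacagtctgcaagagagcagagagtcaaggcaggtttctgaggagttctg
Ifit3, chr19:34583279-34583578, + strand: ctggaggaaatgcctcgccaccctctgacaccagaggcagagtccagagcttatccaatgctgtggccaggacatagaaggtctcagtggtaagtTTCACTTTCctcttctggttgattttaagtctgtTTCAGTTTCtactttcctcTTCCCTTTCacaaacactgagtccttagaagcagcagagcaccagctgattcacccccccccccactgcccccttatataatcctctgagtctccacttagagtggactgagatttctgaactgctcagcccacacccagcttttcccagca
Oas3, chr5:120777610-120777909, − strand: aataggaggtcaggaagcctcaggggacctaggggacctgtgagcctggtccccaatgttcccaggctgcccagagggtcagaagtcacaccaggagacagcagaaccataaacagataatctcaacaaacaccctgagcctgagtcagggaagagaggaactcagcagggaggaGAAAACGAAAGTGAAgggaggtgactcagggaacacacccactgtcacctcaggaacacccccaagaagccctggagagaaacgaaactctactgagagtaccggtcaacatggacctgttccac
Oasl1, chr5:114922990-114923289, + strand: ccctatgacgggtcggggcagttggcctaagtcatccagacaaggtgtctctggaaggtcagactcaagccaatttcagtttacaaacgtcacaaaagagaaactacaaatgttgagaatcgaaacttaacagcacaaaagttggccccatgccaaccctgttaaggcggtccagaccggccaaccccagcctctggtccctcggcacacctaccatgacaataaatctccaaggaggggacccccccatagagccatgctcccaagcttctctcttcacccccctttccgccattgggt
In Ifit1 the match nearest to the start began 84 bases before it, in Ifit3 102 bases before it and in Oas3 69 bases before it. Of 23 matches in all member windows, 16 began within 200 bases before the start. That stretch makes up most of the window of 250 bases before and 50 after the start, so the count does not show clustering. A match is a description of letters and was not tested as a binding site. The median change at 6 h was 0.38 in TAK1-deleted and 0.88 in wild type cells for the 13 members with a match, and 0.24 in TAK1-deleted and 1.17 in wild type cells for the 13 without.

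Averaged over the 35 genes, the level was lower at 1 and 3 h than at 0 h, highest at 6 h and lower again at 24 h, while single genes departed from this course. The mean over the 35 genes in TAK1-deleted cells was 9.79 and 9.50 at 0 h, 9.31 and 8.99 at 1 h, 9.15 and 8.81 at 3 h, 10.28 and 10.07 at 6 h, then 9.46 and 9.37 at 24 h. The mean in wild type cells was 9.73 and 9.46 at 0 h, 9.24 and 8.94 at 1 h, 9.20 and 9.0 at 3 h, 10.82 and 10.71 at 6 h, then 9.35 and 9.17 at 24 h. The group mean was highest at 6 h for 29 of 35 genes in TAK1-deleted cells and for 33 of 35 in wild type cells. The exceptions in wild type were Samd9l, highest at 0 h, and Ifih1, highest at 24 h. In TAK1-deleted cells Isg20, Oas1a, Samd9l, Lgals3bp and Ddx58 were highest at 0 h and Parp12 at 24 h. The plot of 9 members by sample shows these courses.

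**Figure D1:**
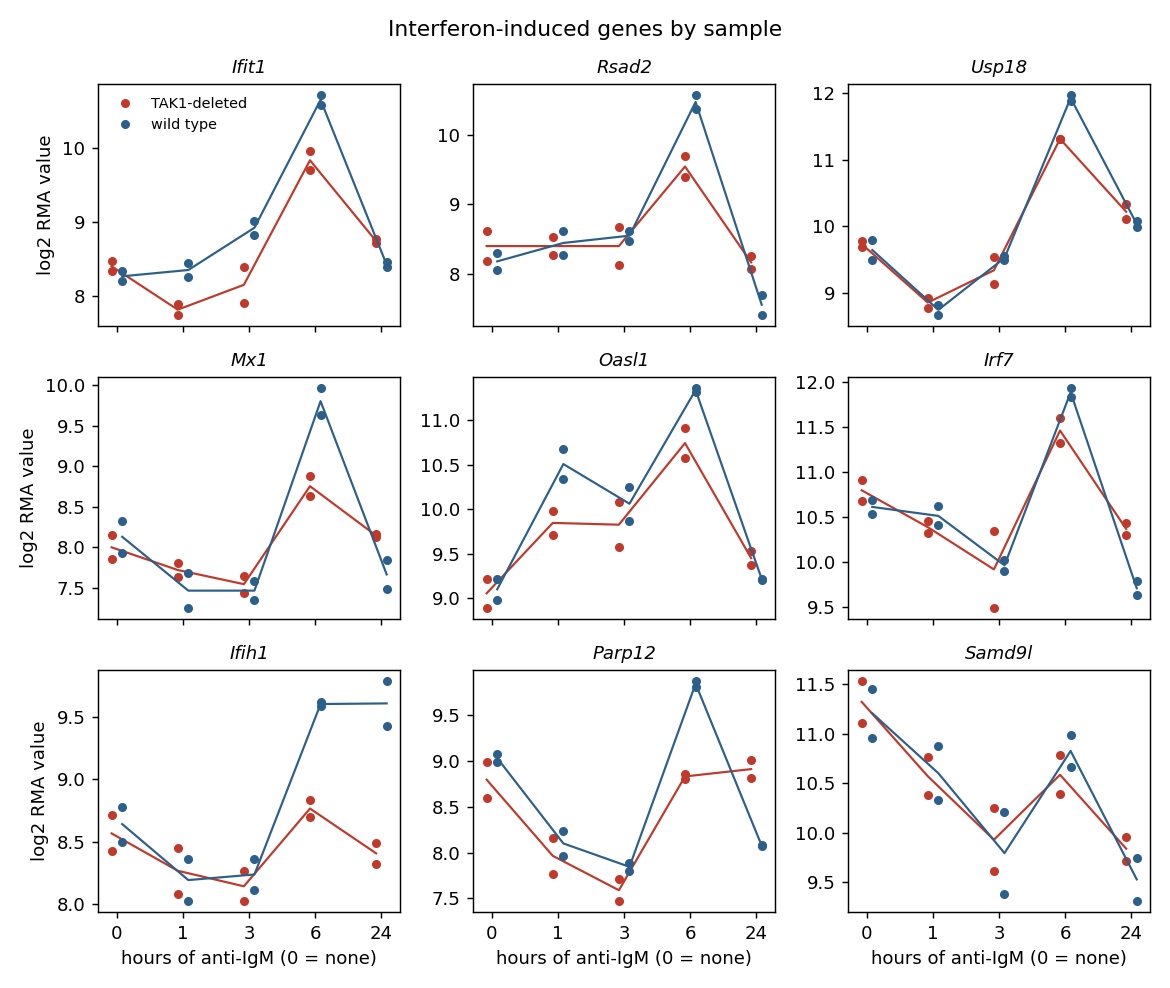
Log2 RMA values of 9 interferon-induced genes in each array against hours of anti-IgM (positions on the x axis are not to scale in time), with TAK1-deleted arrays in red and wild type arrays in blue; points are arrays and lines join the means of 2 arrays. Most genes have their highest wild type values at 6 h, with Ifit1 at 10.72 and 10.58, while Samd9l starts high at 0 h.

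After 1 h most members had lower values than at 0 h and Oasl1 alone was called higher. In TAK1-deleted cells 13 of 35 members fell and 1 rose, with a median change of -0.48; over all genes 10.2% fell and 9.10% rose, with a median of -0.03. Wild type cells had 17 falls and 1 rise, with a median of -0.60, against 13.9% and 10.6% of all genes and a median of -0.05. Between same-numbered arrays the median change was -0.52 for replicate 1 and -0.53 for replicate 2 in TAK1-deleted cells, and -0.58 and -0.59 in wild type cells. The counts of falls, however, were lower with some single arrays left out. For TAK1-deleted cells the number was 5 without the 0 h replicate 1 and 3 without the 1 h replicate 2, and for wild type cells it was 8 without the 0 h replicate 1 and likewise 8 without the 1 h replicate 2. The single rise in TAK1-deleted cells, that of Oasl1, was lost without the 1 h replicate 1 or without the 0 h replicate 2, while in wild type it held with each array left out in turn.

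After 3 h falls still outnumbered rises. In TAK1-deleted cells 21 of 35 members fell and 1 rose (median -0.67), against 22.1% and 19.6% of all genes (median 0.02). Wild type cells had 15 falls and 3 rises (median -0.49), against 23.2% and 20.9% of all genes (median 0.04). Those rising in wild type were Oasl1, Ifit1 and Ifi35. In TAK1-deleted cells the count of rises was 0 without the 3 h replicate 1 or the 0 h replicate 2, and 2 without the 0 h replicate 1 or the 3 h replicate 2. Between 1 and 3 h itself, 4 members rose and 8 fell in TAK1-deleted cells (15.4% and 17.2% of all genes), and 7 rose and 6 fell in wild type cells (18.1% and 18.0%). With single arrays left out, in TAK1-deleted cells 2 rose without the 3 h replicate 1, 1 rose without the 1 h replicate 2, 4 fell without the 1 h replicate 1 and 5 fell without the 3 h replicate 2. In wild type cells 3 rose without the 3 h replicate 1 or the 1 h replicate 2, and 2 fell without the 1 h replicate 1 or the 3 h replicate 2. Macrophage transcripts fell over the same hours, as given further on.

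At 6 h the calls against 0 h were rises in both genotypes. In TAK1-deleted cells 17 of 35 rose and 0 fell (limma, 1 fell at an unadjusted p below 0.05), with a median of 0.48; over all genes 18.5% rose and 17.3% fell, with a median of 0.06. In wild type cells 29 of 35 rose and 0 fell (limma, 0 also at an unadjusted p below 0.05), with a median of 1.17, against 24.1% and 19.1% of all genes and a median of 0.05. The values of the 6 h arrays lay above those of the 0 h arrays without overlap for 23 of 35 members in TAK1-deleted and 32 in wild type cells, against 36.5% and 38.8% of all genes. The wild type calls held with each array left out in turn for 25 of the 29; the other 4 were Oas1a, Stat2, Trim25 and Herc6. In TAK1-deleted cells the number rising was 11 without the 6 h replicate 1 and 11 without the 0 h replicate 2, and 11 of the 17 held with every array left out in turn.

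The rise was steep between 3 and 6 h, an interval in which few other genes were called. In TAK1-deleted cells 28 of 35 members rose between these times (median 1.24), against 3.66% of all genes rising and 2.42% falling. The wild type count was 33 of 35 rising (median 1.79), against 5.83% rising and 2.87% falling, and for all 35 both 6 h arrays were above both 3 h arrays, as for 33.4% of all genes. With only the groups of the comparison fitted, 7 members rose in TAK1-deleted cells in place of 28. From 6 to 24 h, 23 of 35 fell in TAK1-deleted cells (median -0.70), against 8.05% of all genes falling and 10.8% rising. The wild type count here was 34 of 35 falling (median -1.45), against 10.4% falling and 9.02% rising, the exception being Ifih1. The TAK1-deleted count was 14 without the 6 h replicate 1 and 14 without the 24 h replicate 2. The heat map of changes from 0 h sets these times side by side.

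**Figure D2:**
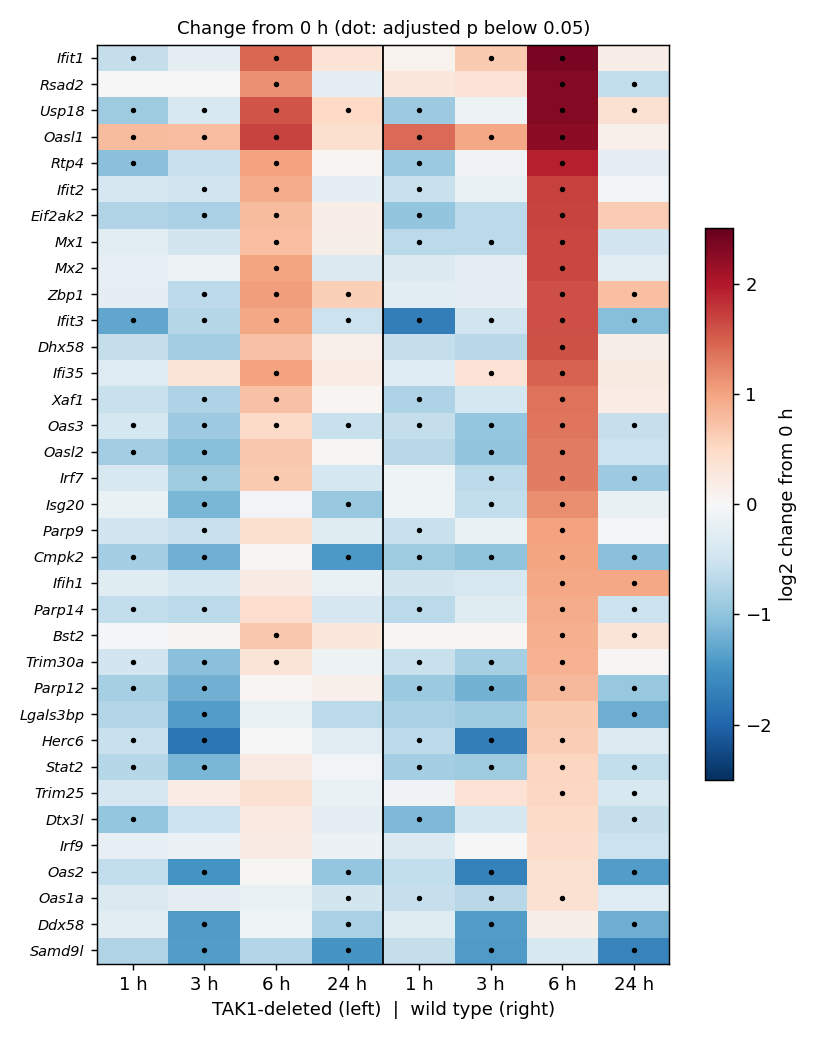
Log2 change from 0 h (colour, from -2.5 to 2.5) for the 35 members in TAK1-deleted cells (left) and wild type cells (right) at 1, 3, 6 and 24 h, ordered by the wild type change at 6 h; a dot marks an adjusted p below 0.05. The 6 h columns hold 17 dots in TAK1-deleted and 29 in wild type cells, all on positive changes.

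Among the antiviral effectors, the IFIT family, whose proteins bind foreign RNA, gave the largest wild type change. Ifit1 in TAK1-deleted cells read 8.34 and 8.47 at 0 h, 7.89 and 7.75 at 1 h, 8.40 and 7.91 at 3 h, 9.96 and 9.71 at 6 h, then 8.77 and 8.72 at 24 h. Ifit1 in wild type cells read 8.20 and 8.34 at 0 h, 8.45 and 8.26 at 1 h, 9.02 and 8.83 at 3 h, 10.72 and 10.58 at 6 h, then 8.39 and 8.46 at 24 h. All 4 arrays at 6 h stood above all other arrays of Ifit1, and TAK1-deleted arrays were below wild type ones without overlap at 1, 3 and 6 h and above them at 24 h. The change of Ifit1 at 6 h was 1.43 ± 0.15 (adjusted p = 2.61e-06) in TAK1-deleted and 2.38 ± 0.15 (adjusted p = 8.81e-09) in wild type cells, a 2.7-fold and a 5.2-fold rise. At 1 h Ifit1 fell in TAK1-deleted cells (-0.59 ± 0.15, adjusted p = 0.0129) and measured 0.09 ± 0.15 (adjusted p = 0.733) in wild type, where it was not called. At 3 h Ifit1 rose in wild type (0.65 ± 0.15, adjusted p = 0.0026) and gave no call in TAK1-deleted cells (-0.25 ± 0.15, adjusted p = 0.219). Ifit3 moved most at 1 h: it read 8.66 and 8.21 at 1 h against 9.72 and 9.73 at 0 h in TAK1-deleted cells, and 8.12 and 7.82 against 9.75 and 9.64 in wild type cells. The log2 change of Ifit3 was -1.29 ± 0.16 in TAK1-deleted and -1.73 ± 0.16 in wild type cells, the largest fall among members at that time in either genotype. At 6 h Ifit3 had risen by 0.97 ± 0.16 (adjusted p = 0.00017) in TAK1-deleted and 1.62 ± 0.16 (adjusted p = 6.29e-07) in wild type cells, and Ifit2 by 0.92 ± 0.15 (adjusted p = 0.000167) and 1.70 ± 0.15 (adjusted p = 2.29e-07) in the same order of genotypes.

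Rsad2 encodes viperin, an enzyme that makes a chain-terminating nucleotide against viral copying. Rsad2 in TAK1-deleted cells read 8.62 and 8.18 at 0 h, 8.53 and 8.27 at 1 h, 8.67 and 8.13 at 3 h, 9.69 and 9.40 at 6 h, then 8.26 and 8.07 at 24 h. Rsad2 in wild type cells read 8.30 and 8.06 at 0 h, 8.62 and 8.27 at 1 h, 8.62 and 8.48 at 3 h, 10.58 and 10.37 at 6 h, then 7.70 and 7.41 at 24 h. Rsad2 stayed near its 0 h level for 3 h, was highest in the 6 h arrays of both genotypes, and in wild type was lowest at 24 h. Its change at 6 h was 1.14 ± 0.20 (adjusted p = 0.000344) in TAK1-deleted and 2.29 ± 0.20 (adjusted p = 2.18e-07) in wild type cells. Between 6 and 24 h Rsad2 had the largest fall of any member in wild type (-2.91 ± 0.20, adjusted p = 8.63e-08), where its 24 h level was below 0 h (-0.62 ± 0.20, adjusted p = 0.021). Cmpk2, a neighbouring gene for a mitochondrial nucleotide kinase that is known to be induced with Rsad2, rose by 0.98 ± 0.19 (adjusted p = 0.00048) at 6 h in wild type and had no call in TAK1-deleted cells (0.03 ± 0.19, adjusted p = 0.916). At 24 h Cmpk2 fell (log2 change -1.44 ± 0.19 in TAK1-deleted and -1.05 ± 0.19 in wild type cells).

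The Mx genes encode dynamin-like GTPases that trap viral nucleoproteins. Mx1 in TAK1-deleted cells read 8.15 and 7.85 at 0 h, 7.81 and 7.63 at 1 h, 7.65 and 7.44 at 3 h, 8.88 and 8.63 at 6 h, then 8.13 and 8.16 at 24 h. Mx1 in wild type cells read 8.33 and 7.93 at 0 h, 7.68 and 7.25 at 1 h, 7.58 and 7.35 at 3 h, 9.97 and 9.64 at 6 h, then 7.84 and 7.49 at 24 h. The 6 h arrays were the highest in each genotype, and those of TAK1-deleted cells lay below those of wild type. Mx1 rose by 0.76 ± 0.19 (adjusted p = 0.00535) in TAK1-deleted and 1.67 ± 0.19 (adjusted p = 3.08e-06) in wild type cells at 6 h. Mx2 reached the filter level of 7.45 only in the 6 h arrays, at 7.91 and 7.79 in TAK1-deleted and 8.50 and 8.53 in wild type cells, so it entered the test only through the time at which it is high and had to differ there. Without Mx2 the members rising at 6 h number 16 in TAK1-deleted and 28 in wild type cells, and those lower in TAK1-deleted than in wild type cells at 6 h number 12. C57BL/6 mice are known to carry defective Mx alleles.

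The oligoadenylate synthetase family senses double-stranded RNA and makes the activator of RNase L. Oas3 in TAK1-deleted cells read 8.30 and 8.19 at 0 h, 7.96 and 7.65 at 1 h, 7.21 and 7.45 at 3 h, 8.91 and 8.52 at 6 h, then 7.68 and 7.71 at 24 h. Oas3 in wild type cells read 8.57 and 8.39 at 0 h, 7.91 and 7.86 at 1 h, 7.43 and 7.62 at 3 h, 9.82 and 9.82 at 6 h, then 7.89 and 7.93 at 24 h. The 6 h arrays of Oas3 were the highest in each genotype, those of TAK1-deleted cells stood below both wild type ones, and the 3 h arrays were the lowest in each genotype. Oas3 fell at 3 h (log2 change -0.91 ± 0.15 in TAK1-deleted and -0.96 ± 0.15 in wild type cells), and rose at 6 h by 0.48 ± 0.15 (adjusted p = 0.0174) in TAK1-deleted and 1.34 ± 0.15 (adjusted p = 1.87e-06) in wild type cells. Oas2 fell further at 3 h (-1.50 ± 0.26, adjusted p = 0.000222 in TAK1-deleted and -1.68 ± 0.26, adjusted p = 6.81e-05 in wild type cells) and had not passed its 0 h level by a call at 6 h. Oasl1, a family member that binds RNA without making oligoadenylates, had a course of its own. Oasl1 in TAK1-deleted cells read 9.22 and 8.89 at 0 h, 9.98 and 9.71 at 1 h, 10.08 and 9.57 at 3 h, 10.91 and 10.57 at 6 h, then 9.53 and 9.37 at 24 h. Oasl1 in wild type cells read 9.22 and 8.98 at 0 h, 10.67 and 10.34 at 1 h, 10.25 and 9.87 at 3 h, 11.36 and 11.31 at 6 h, then 9.21 and 9.22 at 24 h. Oasl1 was above 0 h in all arrays from 1 to 6 h of both genotypes. It rose at 1 h by 0.79 ± 0.19 (adjusted p = 0.00832) in TAK1-deleted and 1.41 ± 0.19 (adjusted p = 5.46e-05) in wild type cells, and at 6 h by 1.69 ± 0.19 (adjusted p = 5.17e-06) and 2.24 ± 0.19 (adjusted p = 1.81e-07) in that order. Oas1a has a second probe set shared with Oas1g that was not used, so near copies of this family may contribute to its value.

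Other effectors rose at 6 h in both genotypes. Zbp1, a sensor of Z-form nucleic acid that can trigger cell death, rose by 1.04 ± 0.15 (adjusted p = 3.27e-05) in TAK1-deleted and 1.62 ± 0.15 (adjusted p = 2.38e-07) in wild type cells, and was still up at 24 h by 0.59 ± 0.15 (adjusted p = 0.0064) and 0.75 ± 0.15 (adjusted p = 0.000544). Rtp4 rose by 1.01 ± 0.22 (adjusted p = 0.00189) in TAK1-deleted and 1.94 ± 0.22 (adjusted p = 3.12e-06) in wild type cells, after falls at 1 h with log2 changes of -1.04 ± 0.22 and -0.93 ± 0.22. Eif2ak2, the gene of the translation-blocking kinase PKR, rose by 0.80 ± 0.29 (adjusted p = 0.0414) in TAK1-deleted and 1.68 ± 0.29 (adjusted p = 0.000189) in wild type cells. Ifi35 rose by 1.01 ± 0.13 (adjusted p = 1.37e-05) and 1.47 ± 0.13 (adjusted p = 1.94e-07), and Bst2, which tethers budding viruses, by 0.67 ± 0.11 (adjusted p = 0.000168) and 0.88 ± 0.11 (adjusted p = 8.48e-06), each with TAK1-deleted cells given first. Of the 21 effectors 14 rose in TAK1-deleted and 18 in wild type cells at 6 h, with medians of 0.76 and 1.47. Samd9l, a restriction factor of poxviruses, had a different course. Samd9l in TAK1-deleted cells read 11.53 and 11.11 at 0 h, 10.76 and 10.38 at 1 h, 10.25 and 9.61 at 3 h, 10.78 and 10.39 at 6 h, then 9.96 and 9.72 at 24 h. Samd9l in wild type cells read 11.45 and 10.96 at 0 h, 10.87 and 10.33 at 1 h, 10.21 and 9.38 at 3 h, 10.99 and 10.66 at 6 h, then 9.75 and 9.31 at 24 h. In TAK1-deleted cells both 0 h arrays of Samd9l were above all later ones, and in wild type the 0 h and 6 h arrays overlapped. At 24 h Samd9l fell (log2 change -1.48 ± 0.30 in TAK1-deleted and -1.67 ± 0.30 in wild type cells), the largest fall of a member at that time in either genotype.

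Of the 3 transcription factors, Irf7 had the largest rise at 6 h. Irf7 in TAK1-deleted cells read 10.92 and 10.68 at 0 h, 10.46 and 10.32 at 1 h, 10.35 and 9.49 at 3 h, 11.60 and 11.33 at 6 h, then 10.44 and 10.30 at 24 h. Irf7 in wild type cells read 10.69 and 10.54 at 0 h, 10.62 and 10.41 at 1 h, 10.03 and 9.90 at 3 h, 11.94 and 11.84 at 6 h, then 9.79 and 9.63 at 24 h. The 6 h arrays of Irf7 were highest in both genotypes, and at 24 h the TAK1-deleted arrays lay above the wild type ones. Irf7 rose at 6 h by 0.66 ± 0.20 (adjusted p = 0.0185) in TAK1-deleted and 1.27 ± 0.20 (adjusted p = 9.84e-05) in wild type cells, after falls at 3 h with log2 changes of -0.88 ± 0.20 and -0.65 ± 0.20. Stat2 and Irf9 are subunits of ISGF3. Stat2 fell at 1 h (log2 change -0.71 ± 0.16 in TAK1-deleted and -0.84 ± 0.16 in wild type cells) and again at 3 h (log2 change -1.15 ± 0.16 and -0.88 ± 0.16). At 6 h Stat2 rose in wild type (0.54 ± 0.16, adjusted p = 0.00955) and had no call in TAK1-deleted cells (0.20 ± 0.16, adjusted p = 0.347). Irf9 was not called at any time against 0 h; at 6 h it measured 0.21 ± 0.25 (adjusted p = 0.562) in TAK1-deleted and 0.43 ± 0.25 (adjusted p = 0.189) in wild type cells.

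The 3 RNA sensors of the RIG-I family split. Ddx58 encodes RIG-I itself, and it fell at 3 h (log2 change -1.42 ± 0.16 in TAK1-deleted and -1.39 ± 0.16 in wild type cells). At 6 h it had no call, with -0.11 ± 0.16 (adjusted p = 0.653) in TAK1-deleted and 0.15 ± 0.16 (adjusted p = 0.52) in wild type cells. At 24 h Ddx58 fell (log2 change -0.82 ± 0.16 in TAK1-deleted and -1.23 ± 0.16 in wild type cells). Ifih1 encodes MDA5, the sensor of long double-stranded RNA. Ifih1 in TAK1-deleted cells read 8.71 and 8.42 at 0 h, 8.45 and 8.08 at 1 h, 8.26 and 8.02 at 3 h, 8.83 and 8.70 at 6 h, then 8.49 and 8.32 at 24 h. Ifih1 in wild type cells read 8.78 and 8.50 at 0 h, 8.36 and 8.02 at 1 h, 8.36 and 8.11 at 3 h, 9.62 and 9.59 at 6 h, then 9.79 and 9.43 at 24 h. Wild type arrays of Ifih1 were high at 6 and 24 h alike, while TAK1-deleted arrays at 24 h were within the range of 0 h or below. Ifih1 rose in wild type by 0.96 ± 0.18 (adjusted p = 0.000375) at 6 h and 0.97 ± 0.18 (adjusted p = 0.000352) at 24 h. In TAK1-deleted cells Ifih1 measured 0.20 ± 0.18 (adjusted p = 0.432) at 6 h and -0.16 ± 0.18 (adjusted p = 0.572) at 24 h, without a call. Dhx58, the gene of the regulator LGP2, rose at 6 h in wild type (1.60 ± 0.36, adjusted p = 0.00172).

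Usp18 led the enzymes that act on ubiquitin-like proteins or ADP-ribose; its product removes Isg15 from proteins and blocks the interferon receptor. Usp18 in TAK1-deleted cells read 9.78 and 9.69 at 0 h, 8.93 and 8.78 at 1 h, 9.54 and 9.14 at 3 h, 11.32 and 11.31 at 6 h, then 10.33 and 10.11 at 24 h. Usp18 in wild type cells read 9.80 and 9.49 at 0 h, 8.82 and 8.67 at 1 h, 9.56 and 9.49 at 3 h, 11.98 and 11.88 at 6 h, then 10.08 and 9.99 at 24 h. The 6 h arrays of Usp18 were the highest and the 1 h arrays the lowest in each genotype. Usp18 fell at 1 h (log2 change -0.88 ± 0.15 in TAK1-deleted and -0.90 ± 0.15 in wild type cells). At 6 h it rose by 1.58 ± 0.15 (adjusted p = 5.47e-07) in TAK1-deleted and 2.29 ± 0.15 (adjusted p = 7.55e-09) in wild type cells, a 2.98-fold and a 4.88-fold change, and at 24 h it was still up by 0.49 ± 0.15 (adjusted p = 0.0208) and 0.39 ± 0.15 (adjusted p = 0.0431). Herc6, known in mice as the ligase that attaches Isg15, read 8.12 and 7.98 at 3 h against 10.05 and 9.67 at 0 h in TAK1-deleted cells, and 8.22 and 8.07 against 10.06 and 9.66 in wild type cells. This was the largest fall of a member at 3 h in each genotype, with log2 changes of -1.81 ± 0.18 and -1.72 ± 0.18. Dtx3l, a ubiquitin ligase that pairs with Parp9, fell at 1 h (log2 change -0.97 ± 0.22 in TAK1-deleted and -1.13 ± 0.22 in wild type cells). Of the 8 enzymes 2 rose in TAK1-deleted and 7 in wild type cells at 6 h, with medians of 0.35 and 0.84.

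Between the genotypes, unstimulated cells did not differ in any member by a call. At 0 h limma called 0 of 35 members in either direction, against 1.50% higher and 0.819% lower among all genes; at an unadjusted p below 0.05, 2 were higher and 0 lower, and the median was 0.02. At 1 h 1 member, Xaf1, was higher (0.95 ± 0.23, adjusted p = 0.0233) and 0 were lower (2 at an unadjusted p below 0.05), with a median of 0.08, against 2.07% higher and 2.21% lower among all genes. Xaf1, which encodes a proapoptotic protein, read 9.24 and 8.83 in TAK1-deleted against 8.23 and 7.94 in wild type cells at 1 h, and 9.81 and 9.36 against 9.01 and 8.70 already at 0 h, where it was not called. Its call at 1 h was lost without either wild type replicate or without the TAK1-deleted replicate 1, and without the TAK1-deleted replicate 2 the count was 2. At 3 h 1 member, Ifit1, was lower (-0.77 ± 0.15, adjusted p = 0.0109), with a median of -0.15, against 1.70% lower and 1.00% higher among all genes. The call of Ifit1 at 3 h was lost without the wild type replicate 1 or the TAK1-deleted replicate 2.

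At 6 h, the time of highest values for most members, 34 of 35 had a negative difference between genotypes. Of 35 members 13 were lower and 0 higher (limma, 0 higher also at an unadjusted p below 0.05), with a median of -0.62, against 1.60% lower and 0.927% higher among all genes, whose median was 0.00. Both TAK1-deleted arrays were below both wild type arrays for 32 members, against 27.5% of all genes, and the other 3 overlapped. The lower members included Oas3 (-1.10 ± 0.15, adjusted p = 0.000445), Mx1 (-1.05 ± 0.19, adjusted p = 0.0057), Parp12 (-1.01 ± 0.16, adjusted p = 0.00227), Rsad2 (-0.93 ± 0.20, adjusted p = 0.0209), Ifih1 (-0.84 ± 0.18, adjusted p = 0.0192) and Ifit1 (-0.81 ± 0.15, adjusted p = 0.00809). Parp12, an ADP-ribosyltransferase that restrains viral translation, read 8.86 and 8.80 in TAK1-deleted and 9.87 and 9.81 in wild type cells. The other 7 were Oas1a, Isg20, Ifit2, Mx2, Zbp1, Ifit3 and Usp18, at -0.76 to -0.62. Mx2 passed the filter only through its 6 h arrays, and without it 12 of 34 were lower. Among genes named in every comparison, Irf7 (-0.42 ± 0.20, adjusted p = 0.417), Stat2 (-0.38 ± 0.16, adjusted p = 0.296), Bst2 (-0.34 ± 0.11, adjusted p = 0.151), Ddx58 (-0.33 ± 0.16, adjusted p = 0.419) and Irf9 (-0.24 ± 0.25, adjusted p = 0.772) were not called. By role, 10 of 21 effectors, 0 of 3 transcription factors, 1 of 3 sensors and 2 of 8 enzymes were called lower, with medians of -0.66, -0.38, -0.74 and -0.52.

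Between same-numbered arrays the median difference at 6 h was -0.58 for replicate 1 and -0.62 for replicate 2, negative for 34 and 35 members. The count of 13 called lower dropped whichever array was left out. It was 2 without the wild type replicate 1, 4 without the wild type replicate 2, 5 without the TAK1-deleted replicate 1 and 2 without the TAK1-deleted replicate 2. With quantile normalization it was 20, and with replicate number as a block it was higher still, as given in the section on processing. The calls of Oas3 and Parp12 held with each array left out in turn. Other cell markers differed between the genotypes in the same arrays, and several of these differences were present before stimulation. At 6 h 8 of 9 erythroid markers were higher and 6 of 10 NK cell, 2 of 9 T cell and 1 of 5 plasma cell markers lower in TAK1-deleted cells. The log2 of the summed erythroid markers was 11.88 to 12.11 in TAK1-deleted and 10.51 to 10.56 in wild type cells, and that of the NK cell markers 10.49 to 10.6 and 11.48 to 11.61. Of 5 plasmacytoid dendritic cell markers, those of cells that make much type I interferon, 1 was higher and 0 lower, and the log2 of their sum was 11.22 to 11.39 in TAK1-deleted and 10.86 to 10.89 in wild type cells. For the T cell markers the log2 of the sum was 11.74 to 12.05 in TAK1-deleted and 12.33 to 12.51 in wild type cells, and for the plasma cell markers 11.87 to 12.11 in TAK1-deleted and 12.62 to 12.7 in wild type cells. For the B cell markers the log2 of the sum was 14.99 to 15.2 in TAK1-deleted and 15.28 to 15.32 in wild type cells. At 0 h the log2 of the summed erythroid markers was already 14.07 to 14.33 in TAK1-deleted and 12.54 to 12.56 in wild type cells. For the NK cell markers it was 11.79 to 12.02 in TAK1-deleted and 12.79 to 13.01 in wild type cells at 0 h. The plasma cell markers gave 11.82 in TAK1-deleted and 13.07 to 13.19 in wild type cells at 0 h. The B cell markers overlapped at 0 h. The part of any of these cells in the difference of members at 6 h was not tested.

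**Figure D3:**
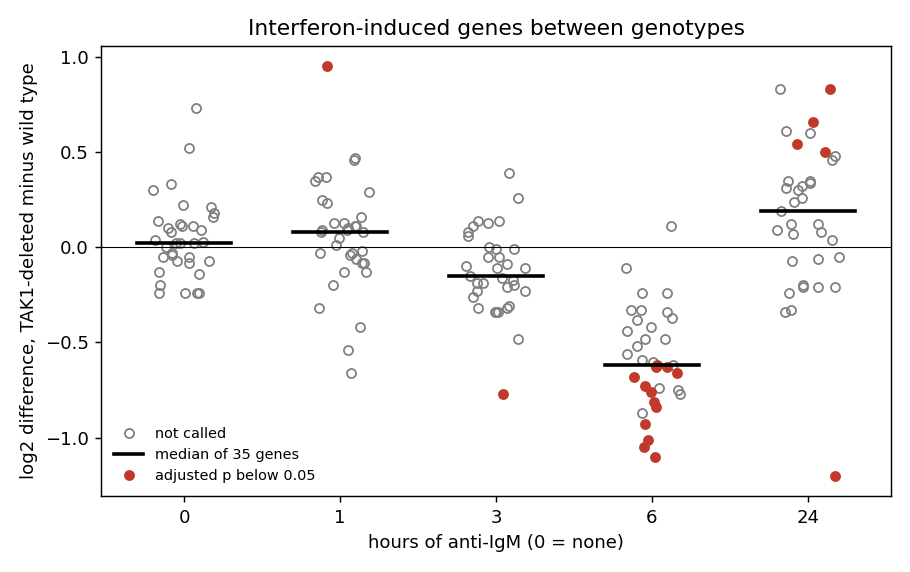
Log2 difference between TAK1-deleted and wild type cells (TAK1-deleted minus wild type) for each of the 35 members at 0, 1, 3, 6 and 24 h; each circle is a gene, filled where the adjusted p was below 0.05, and the bar is the median. The medians are 0.02, 0.08, -0.15, -0.62 and 0.19.

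Whether the change from 0 h differed between the genotypes was tested as the response, the TAK1-deleted change minus the wild type change. At 6 h the response was negative for all 35 members, with a median of -0.62 (all genes -0.01), yet limma called 0 of them lower and 0 higher, against 0.192% and 0.0919% of all genes. At an unadjusted p below 0.05, 21 of 35 were lower and 0 higher, and with quantile normalization 7 were called lower. With replicate number as a block more members still were called lower, as given in the section on processing. Same-numbered arrays gave a median response of -0.63 for replicate 1 and -0.65 for replicate 2, negative for 34 and 35 members. The response at 6 h measured -1.15 ± 0.29 (adjusted p = 0.106) for Rsad2, -0.95 ± 0.22 (adjusted p = 0.0802) for Ifit1, -0.92 ± 0.27 (adjusted p = 0.188) for Mx1 and -0.71 ± 0.21 (adjusted p = 0.185) for Usp18. At 1 h 0 members were called (0.00% higher and 0.109% lower among all genes; 0 and 2 members at an unadjusted p below 0.05). At 3 h 0 were called (0.00% and 0.0585%; 1 higher and 2 lower at an unadjusted p below 0.05). The median standard error of a response was 0.227 over all genes.

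After 24 h calls of members between the genotypes were few and went in both directions. Against 0 h, 2 of 35 rose and 8 fell in TAK1-deleted cells (median -0.17), against 14.9% and 12.7% of all genes. In wild type cells 4 rose and 14 fell (median -0.34), against 23.6% and 20.2% of all genes. The TAK1-deleted falls numbered 5 without the 0 h replicate 1, and the rises 0 without the 24 h replicate 1 or the 0 h replicate 2 and 1 without the 0 h replicate 1. The wild type falls numbered 8 without the 0 h replicate 1 and 9 without the 24 h replicate 2, and the rises 2 without the 24 h replicate 1. Between genotypes 4 members were higher in TAK1-deleted cells and 1 lower (median 0.19), against 7.04% higher and 5.18% lower among all genes. The higher ones were Parp12 (0.83 ± 0.16, adjusted p = 0.00239), Irf7 (0.66 ± 0.20, adjusted p = 0.0456), Ifit3 (0.54 ± 0.16, adjusted p = 0.0353) and Stat2 (0.50 ± 0.16, adjusted p = 0.0462), of which Parp12 alone was called with each of the 4 arrays left out in turn. The lower one was Ifih1 (-1.20 ± 0.18, adjusted p = 0.000354), called in each of those fits.

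Parp12 and Ifih1 were also the members whose change from 0 h to 24 h differed between genotypes. Of all genes 4.62% had a higher and 4.04% a lower response at 24 h. Parp12 in TAK1-deleted cells read 8.99 and 8.60 at 0 h, 8.16 and 7.77 at 1 h, 7.71 and 7.47 at 3 h, 8.86 and 8.80 at 6 h, then 9.01 and 8.81 at 24 h. Parp12 in wild type cells read 9.07 and 8.99 at 0 h, 8.24 and 7.96 at 1 h, 7.80 and 7.89 at 3 h, 9.87 and 9.81 at 6 h, then 8.08 and 8.07 at 24 h. The 24 h wild type arrays of Parp12 had fallen below its 0 h arrays, while those of TAK1-deleted cells were within or above the 0 h range. The change of Parp12 at 24 h was 0.12 ± 0.16 (adjusted p = 0.645) in TAK1-deleted and -0.95 ± 0.16 (adjusted p = 0.00013) in wild type cells, and the response was 1.07 ± 0.22 (adjusted p = 0.00599). For Ifih1 the change was -0.16 ± 0.18 (adjusted p = 0.572) in TAK1-deleted and 0.97 ± 0.18 (adjusted p = 0.000352) in wild type cells, and the response was -1.13 ± 0.25 (adjusted p = 0.00961), a call lost without the wild type 24 h replicate 1 (adjusted p = 0.0565).

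Markers of other cells were followed beside these values, since a depletion of CD43-bearing cells can leave myeloid cells. Of 15 monocyte or macrophage markers, 12, 13, 14 and 9 fell in TAK1-deleted cells at 1, 3, 6 and 24 h, and 12, 13, 12 and 14 in wild type cells. Between genotypes at 24 h, 11 of these 15 and 9 of 10 neutrophil markers were higher in TAK1-deleted cells. The log2 of the summed macrophage markers at 24 h was 14.18 to 14.33 in TAK1-deleted and 12.78 to 12.93 in wild type cells. At 6 h it was 12.3 to 12.4 in TAK1-deleted and 12.43 to 12.56 in wild type cells, and 1 of 15 was called lower. At 6 h 9 of the 15 markers, among them C1qa, C1qb, C1qc and Siglec1, were below the filter level of 7.45 in each genotype. In wild type cells the sum at 3 h, 12.53 to 12.55, overlapped that at 6 h. The part of macrophages in the falls of members at 1 and 3 h or in the differences at 24 h was not tested. Of 6 conventional dendritic cell markers 5 fell at 1, 3 and 6 h in both genotypes. Between genotypes at 24 h 4 of 9 T cell, 2 of 6 conventional dendritic cell and 2 of 5 plasmacytoid dendritic cell markers were higher in TAK1-deleted cells. Of 5 plasma cell markers 1 was higher and 1 lower at that time. The plot of list means sets the members beside macrophage and B cell markers.

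**Figure D4:**
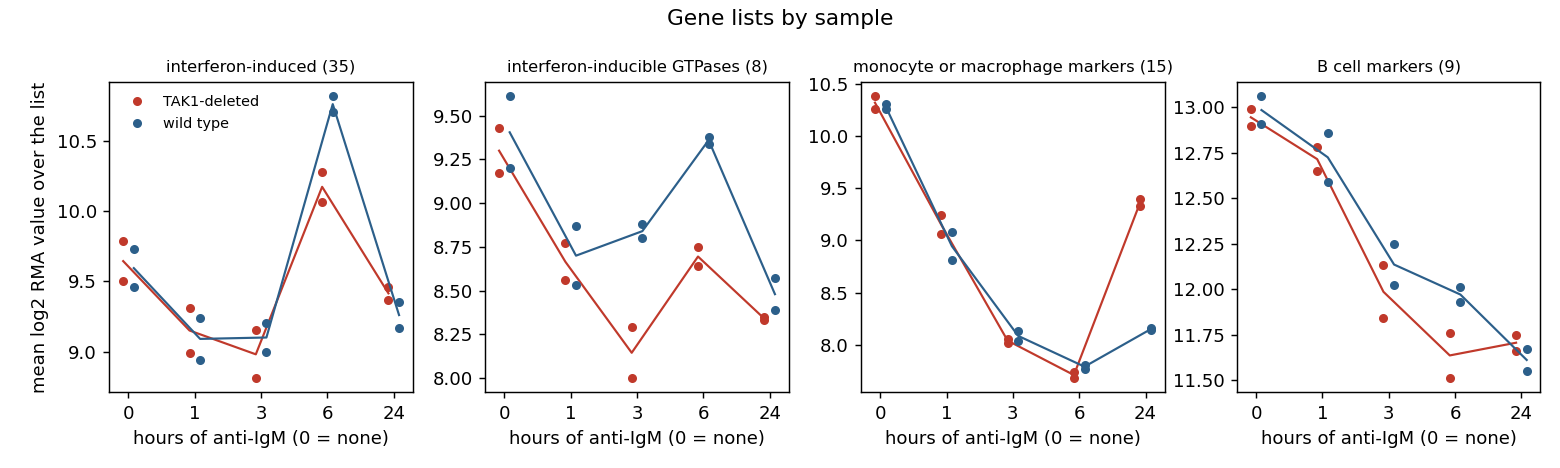
Mean log2 RMA value of 4 gene lists (35 interferon-induced genes, 8 interferon-inducible GTPases, 15 monocyte or macrophage markers and 9 B cell markers) in each array against hours of anti-IgM (positions not to scale in time), TAK1-deleted in red and wild type in blue, with lines through the means of 2 arrays. The interferon-induced genes have their highest value at 6 h, with 10.28 and 10.07 in TAK1-deleted and 10.82 and 10.71 in wild type arrays, and the macrophage markers their lowest.

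Upstream of the members stand the interferon genes themselves. Of the interferon genes with a probe set, 10 did not pass the filter and read between 4.54 and 7.49 in all arrays. Among these Ifnb1, the gene of interferon beta, read 5.90 to 6.35. Of the 5 tested, Ifna5 read 8.42 to 9.50, Ifna14 6.35 to 7.58, Ifnz 7.54 to 8.28 and Ifnl2 8.89 to 9.45 over all arrays. Ifng, which encodes the type II interferon, was the one of these 5 called against 0 h or between genotypes. Ifng in TAK1-deleted cells read 7.39 and 7.71 at 0 h, 8.84 and 8.78 at 1 h, 8.57 and 8.17 at 3 h, 8.44 and 8.38 at 6 h, then 8.76 and 9.03 at 24 h. Ifng in wild type cells read 7.59 and 7.75 at 0 h, 9.58 and 9.32 at 1 h, 8.15 and 8.34 at 3 h, 8.49 and 8.53 at 6 h, then 8.41 and 8.32 at 24 h. All stimulated arrays of Ifng were above the 0 h arrays, and at 1 h the wild type arrays were the highest of all. Ifng rose at 1 h by 1.26 ± 0.16 (adjusted p = 2.5e-05) in TAK1-deleted and 1.78 ± 0.16 (adjusted p = 4.99e-07) in wild type cells. Between genotypes it was lower at 1 h (-0.64 ± 0.16, adjusted p = 0.028) and higher at 24 h (0.53 ± 0.16, adjusted p = 0.0377) in TAK1-deleted cells. The log2 of the summed NK cell markers at 1 h was 11.89 to 12.17 in TAK1-deleted and 13.03 to 13.28 in wild type cells. At 24 h it was 10.48 to 10.5 in TAK1-deleted and 10.39 to 10.42 in wild type cells. The part of NK cells or other cells in the values of Ifng was not tested.

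Of 17 genes of the receptor and its signalling chain, 3 rose and 5 fell at 6 h in TAK1-deleted cells, and 3 rose and 7 fell in wild type cells; over all genes 18.5% rose and 17.3% fell in TAK1-deleted cells, and 24.1% rose and 19.1% fell in wild type cells. The inhibitor gene Socs1 rose at 6 h by 0.94 ± 0.16 (adjusted p = 0.000252) in TAK1-deleted and 1.30 ± 0.16 (adjusted p = 7.37e-06) in wild type cells, and Stat3 by 0.94 ± 0.10 (adjusted p = 1.81e-06) and 1.02 ± 0.10 (adjusted p = 4.45e-07). Irf2, a repressor of interferon-induced genes, fell at 3 h (log2 change -1.30 ± 0.14 in TAK1-deleted and -1.41 ± 0.14 in wild type cells), as did the phosphatase gene Ptpn6 (log2 change -1.04 ± 0.13 and -1.33 ± 0.13). The receptor genes Ifnar1 and Ifnar2 were not called at 6 h; Ifnar1 measured 0.23 ± 0.14 (adjusted p = 0.22) in TAK1-deleted and -0.08 ± 0.14 (adjusted p = 0.698) in wild type cells, and Ifnar2 -0.59 ± 0.22 (adjusted p = 0.0514) and -0.21 ± 0.22 (adjusted p = 0.504). At 3 h 4 of the 17 were lower in TAK1-deleted cells, namely the activator gene Irf1 (-0.77 ± 0.12, adjusted p = 0.0018), Ifngr1 (-0.68 ± 0.15, adjusted p = 0.0214), Jak2 (-0.66 ± 0.15, adjusted p = 0.0268) and Stat3 (-0.46 ± 0.10, adjusted p = 0.0153). Irf1 read 10.88 and 10.79 in TAK1-deleted and 11.54 and 11.67 in wild type cells at 3 h, without overlap. At 6 h 0 of the 17 differed between genotypes by limma (1 higher and 3 lower at an unadjusted p below 0.05), and at 24 h 2 were higher, Ifngr1 (0.51 ± 0.15, adjusted p = 0.0383) and Ifnar1 (0.48 ± 0.14, adjusted p = 0.0311).

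Interferon-inducible GTPases attack vacuoles of intracellular microbes and answer mainly to type II interferon. Of 18 listed, 8 were tested, and these changed in both directions. At 6 h 1 of the 8 rose and 5 fell in TAK1-deleted cells, against 18.5% and 17.3% of all genes. In wild type cells 2 rose and 2 fell, against 24.1% and 19.1% of all genes. Irgm1 read 9.08 and 8.97 at 1 h and 10.91 and 10.87 at 6 h in TAK1-deleted cells, and 9.03 and 8.79 at 1 h and 11.35 and 11.47 at 6 h in wild type cells. Irgm1 rose at 6 h by 0.79 ± 0.12 (adjusted p = 8.41e-05) in TAK1-deleted and 1.12 ± 0.12 (adjusted p = 1.67e-06) in wild type cells, while Gbp8 fell (log2 change -1.12 ± 0.15 and -1.17 ± 0.15). Between genotypes 3 of 8 were lower in TAK1-deleted cells at 3 h (Gbp7 -1.24 ± 0.27, adjusted p = 0.0197, Gbp5 -1.14 ± 0.18, adjusted p = 0.00232 and Irgm1 -0.71 ± 0.12, adjusted p = 0.00343) and 3 at 6 h (Gbp7 -1.26 ± 0.27, adjusted p = 0.0199, Gbp11 -0.72 ± 0.17, adjusted p = 0.0294 and Irgm1 -0.52 ± 0.12, adjusted p = 0.0303). Over all genes 1.70% were lower in TAK1-deleted than in wild type cells at 3 h and 1.60% at 6 h. Of 13 genes of nucleic acid sensing outside the members, 0 rose and 4 fell at 6 h in TAK1-deleted cells. In wild type cells 2 of the 13 rose and 5 fell, with the shares of all genes as given above. Tlr3, the endosomal sensor of double-stranded RNA, fell at 3 h (log2 change -2.79 ± 0.24 in TAK1-deleted and -2.34 ± 0.24 in wild type cells), as did Tmem173, the gene of the adaptor STING (log2 change -2.45 ± 0.21 and -2.16 ± 0.21). Limma called 0 of these 13 between genotypes at 6 h (1 higher and 3 lower at an unadjusted p below 0.05).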

How the data were processed

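RNA of 20 mouse splenic B cell samples was hybridised to arrays, and the deposited values are log2 intensities. Per the submitters' processing notes, the authors made them with RMA in version 1.0 of Affymetrix Expression Console. The build behind the probe sets is not given in the sources used here. Of 35556 probe sets, 21789 name 1 gene, 1621 name several and 12146 are not listed in the platform annotation, and 21698 matched RefSeq by gene ID. Each of 19938 genes was read from its brightest probe set of 1 symbol, and 11968 were kept because 2 or more arrays read at or above 7.45, the overall median. No further normalization was applied. All 10 groups were fitted in limma 3.58.1 (R 4.3.3) with an intensity trend and 10 residual degrees of freedom. All tests were two-sided, with Benjamini-Hochberg adjustment over all genes tested in each comparison. The procedure was tested on simulated data. No 2 arrays held identical values.

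The members, gene lists and motifs were chosen with earlier results of these data known. In each comparison the text names up to 6 called members with the largest rise and 6 with the largest fall, a fixed set of members (Ifit1, Irf7, Irf9, Stat2, Usp18, Rsad2, Mx1, Bst2 and Ddx58) and up to 5 called genes of each pathway list. Other members were named for a course of their own after their values were seen. Alternatives covered the filter, scaling, probe sets of a gene, variance trend, groups fitted, replicate number as a block and each array left out.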

Additional observations from a re-analysis of the deposited data

Results flagged for a closer look

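Parp12 and Ifih1 were singled out because their change after 24 h of anti-IgM differed between the genotypes by a test of the difference itself, in opposite directions. Of 35 members 1 was thus called higher and 1 lower, against 4.62% higher and 4.04% lower among all genes. The members were therefore not called more often than other genes in this comparison. The response of Parp12 at 24 h, the TAK1-deleted change minus the wild type change, was 1.07 on the log2 scale (limma, adjusted p = 0.00599), with changes of 0.12 in TAK1-deleted and -0.95 in wild type cells. The response of Ifih1 at 24 h was -1.13 (limma, adjusted p = 0.00961), with changes of -0.16 in TAK1-deleted and 0.97 in wild type cells. The call of Ifih1 was lost without the wild type 24 h replicate 1, and that of Parp12 held with each array left out. With 2 arrays in a group, single arrays were not examined as outliers.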

How the results depend on the processing

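No value of a member changed sign among called values under any alternative. Genes outside the 35 members were not followed through the alternatives. Counts of called members are given below only where they moved clearly from the reported count, which stands in parentheses. A count was taken to have moved if its ratio to the reported count, larger over smaller, was above 3 to 2. It also counted as moved if 1 of the 2 counts was 0 and the other was not. Smaller differences are not listed, so a count that is not given may also have changed. Below, genotypes means TAK1-deleted against wild type, and the cause of each difference was not tested. With quantile normalization, members called numbered 21 lower for TAK1-deleted 1 h over 0 h (13), 2 higher for TAK1-deleted 3 h over 0 h (1), 1 lower for TAK1-deleted 6 h over 0 h (0), 4 higher for TAK1-deleted 24 h over 0 h (2), 5 higher for wild type 3 h over 0 h (3), 1 higher for genotypes at 0 h (0). Under the same setting, members called numbered 2 higher for genotypes at 1 h (1), 3 lower for genotypes at 1 h (0), 3 lower for genotypes at 3 h (1), 20 lower for genotypes at 6 h (13), 8 higher for genotypes at 24 h (4), 7 lower for response at 6 h (0). Under the same setting, members called numbered 3 higher for response at 24 h (1), 2 lower for response at 24 h (1). With the replicate block, members called numbered 27 lower for TAK1-deleted 1 h over 0 h (13), 2 higher for TAK1-deleted 3 h over 0 h (1), 1 lower for TAK1-deleted 6 h over 0 h (0), 5 higher for TAK1-deleted 24 h over 0 h (2), 13 lower for TAK1-deleted 24 h over 0 h (8), 2 higher for wild type 1 h over 0 h (1). Under the same setting, members called numbered 28 lower for wild type 1 h over 0 h (17), 5 higher for wild type 3 h over 0 h (3), 1 lower for wild type 6 h over 0 h (0), 2 higher for genotypes at 0 h (0), 5 higher for genotypes at 1 h (1), 4 lower for genotypes at 1 h (0). Under the same setting, members called numbered 1 higher for genotypes at 3 h (0), 4 lower for genotypes at 3 h (1), 31 lower for genotypes at 6 h (13), 13 higher for genotypes at 24 h (4), 1 lower for response at 3 h (0), 24 lower for response at 6 h (0). Under the same setting, members called numbered 5 higher for response at 24 h (1), 2 lower for response at 24 h (1), 7 higher for TAK1-deleted 3 h over 1 h (4), 13 lower for TAK1-deleted 3 h over 1 h (8), 12 higher for wild type 3 h over 1 h (7), 10 lower for wild type 3 h over 1 h (6). With only the groups of the comparison fitted, members called numbered 1 lower for TAK1-deleted 6 h over 0 h (0), 0 higher for genotypes at 1 h (1), 0 lower for genotypes at 3 h (1), 7 higher for genotypes at 24 h (4), 1 lower for response at 6 h (0), 2 higher for TAK1-deleted 3 h over 1 h (4). Under the same setting, members called numbered 5 lower for TAK1-deleted 3 h over 1 h (8), 7 higher for TAK1-deleted 6 h over 3 h (28). Without a filter, members called numbered 1 higher for genotypes at 24 h (4), 3 lower for wild type 3 h over 1 h (6). With arrays centred on their medians, members called numbered 1 higher for genotypes at 24 h (4), 3 lower for wild type 3 h over 1 h (6). With probe sets of a gene averaged, members called numbered 1 lower for response at 6 h (0). Without the intensity trend, members called numbered 1 lower for response at 6 h (0). With each array left out in turn, the counts ranged as follows. The ranges were 3 to 14 lower for TAK1-deleted 1 h over 0 h (13), 0 to 1 higher for TAK1-deleted 1 h over 0 h (1), 0 to 2 higher for TAK1-deleted 3 h over 0 h (1), 11 to 18 higher for TAK1-deleted 6 h over 0 h (17), 0 to 2 higher for TAK1-deleted 24 h over 0 h (2), 5 to 7 lower for TAK1-deleted 24 h over 0 h (8). Further ranges were 8 to 17 lower for wild type 1 h over 0 h (17), 8 to 15 lower for wild type 24 h over 0 h (14), 2 to 4 higher for wild type 24 h over 0 h (4), 0 to 2 higher for genotypes at 1 h (1), 0 to 1 lower for genotypes at 3 h (1), 2 to 5 lower for genotypes at 6 h (13). Further ranges were 1 to 1 higher for genotypes at 24 h (4), 0 to 1 lower for response at 24 h (1), 4 to 9 lower for TAK1-deleted 3 h over 1 h (8), 1 to 6 higher for TAK1-deleted 3 h over 1 h (4), 14 to 18 lower for TAK1-deleted 24 h over 6 h (23), 2 to 5 lower for wild type 3 h over 1 h (6). Further ranges were 3 to 7 higher for wild type 3 h over 1 h (7). Samples with the same replicate number deviated together, with correlations of 0.191 to 0.769 in all 45 pairs of groups, but the labels do not tie the numbers to a shared source and there are only 2 numbers, so the pairing was not used in the reported fit. Centring moved the median of all genes by up to 0.062 and quantile normalization by up to 0.04. With 2 arrays in a group, small differences were not detectable, and dim probe sets have understated folds.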

Other observations

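A wider set of 55 further interferon-induced genes had calls in both directions at 6 h. Of these, 11 rose and 18 fell in TAK1-deleted cells (median -0.10), and 20 rose and 11 fell in wild type cells (median 0.33). Over all genes 18.5% rose and 17.3% fell in TAK1-deleted cells, and 24.1% rose and 19.1% fell in wild type cells. The chemokine gene Cxcl10 (1.99 ± 0.48, adjusted p = 0.00312) and Trim30d (1.55 ± 0.19, adjusted p = 7.71e-06) rose in wild type cells at 6 h, while the chemokine gene Cxcl9 fell (log2 change -1.89 ± 0.21 in TAK1-deleted and -1.49 ± 0.21 in wild type cells). Ifitm3, which encodes a membrane protein that hinders viral entry, fell at 3 h (log2 change -2.48 ± 0.35 in TAK1-deleted and -2.19 ± 0.35 in wild type cells). Macrophage markers fell over the same hours, and their part in these falls was not tested.

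Between genotypes at 6 h, 1.60% of all genes were called lower and 0.927% higher in TAK1-deleted cells. Of the 55 further genes, 7 were lower at that time and 0 higher (limma, 1 higher at an unadjusted p below 0.05). They included Schlafen family genes, with Slfn5 at -1.57 ± 0.17 (adjusted p = 6.38e-05), Slfn8 at -1.43 ± 0.15 (adjusted p = 6.46e-05) and Slfn1 at -1.13 ± 0.15 (adjusted p = 0.000445). Slfn5 read 9.04 and 9.21 at 6 h in TAK1-deleted and 10.72 and 10.66 in wild type cells. At 0 h Slfn5 (-0.68 ± 0.17, adjusted p = 0.0418) and Slfn8 (-0.92 ± 0.15, adjusted p = 0.00281) were already lower and Slfn9 (1.04 ± 0.18, adjusted p = 0.00405) higher in TAK1-deleted cells. Ddx60, a helicase gene, was lower at 6 h by the same test (-1.07 ± 0.16, adjusted p = 0.00108).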
